A study of Mus musculus with 32 samples.

Results

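Shc1, Shc2, Shc3 and Shc4 encode the Shc adaptors, and Zfp169 encodes a zinc finger protein whose gene lies on the same chromosome as Shc3. These 5 genes were taken by symbol from the 55291 symbols that each of the 4 count tables lists. Shc3 and Zfp169 were chosen by their measured levels at E14.5 (an embryonic stage, in days after conception), where both were lower in Dhcr7-KO brains, so their genotype values at that stage are given as a description, with no test. The other Shc genes were added as their family.

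The mRNA was sequenced from whole brains of C57BL/6J mice. Wild-type brains (WT, Dhcr7+/+) and brains without working Dhcr7 (KO, Dhcr7-/-) were taken at E12.5, E14.5, E16.5 and on the day of birth (PND0), with 4 libraries for each of the 8 groups. Dhcr7 makes cholesterol from 7-dehydrocholesterol, and people in whom it fails have Smith-Lemli-Opitz syndrome. All groups share the strain, and the labels name no treatment. They also give no litter, sex or preparation batch, so p-values measure the spread between these libraries, and stage cannot be told apart from anything else that differed between the 4 collections.

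Shc proteins join activated receptor tyrosine kinases to Ras. They bind a phosphorylated receptor through a PTB or an SH2 domain, are phosphorylated in turn, and recruit Grb2 with the exchange factor Sos, which loads Ras with GTP and starts the Raf, MEK and ERK kinase cascade. Shc1 (ShcA) is found in most tissues and is prominent in dividing progenitors, whereas Shc2 (ShcB, Sck) and Shc3 (ShcC, N-Shc, Rai) are the neuronal forms, and Shc4 (RaLP) is known from muscle, brain and melanoma. Zfp169 belongs to the KRAB zinc finger proteins, which bind DNA through C2H2 fingers and recruit the corepressor Trim28. In whole-brain RNA, fewer cells of a type and less RNA per cell cannot be told apart.

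In the GENCODE M21 annotation of GRCm38, Shc3 (ENSMUSG00000021448.7) spans chromosome 13, 51431041 to 51569419, on the minus strand, and Zfp169 (ENSMUSG00000050954.15) spans 48487647 to 48513451 on the same strand, 2.918 Mb away. Shc1 (ENSMUSG00000042626.13) lies on chromosome 3, 89418443 to 89430027, on the plus strand. The other two are on minus strands, Shc2 (ENSMUSG00000020312.12) on chromosome 10, 79618051 to 79637918, and Shc4 (ENSMUSG00000035109.14) on chromosome 2, 125627447 to 125724148. RefSeq ends both chromosome 13 genes further downstream than GENCODE does, Shc3 by 7652 bases and Zfp169 by 6884, while the ends of Shc1, Shc2 and Shc4 differ by at most 117 bases. Eid1 lies on the opposite strand within Shc4, and the noncoding Gm47163 on the opposite strand of Shc2. The sources used here do not say whether counting used the strand, so reads of these overlaps cannot be told apart.

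The promoter of Zfp169 is shown because for this gene, as for Shc3, the KO libraries lay below the WT libraries at both E14.5 and PND0, and that of Shc1 because this gene fell through development. Both run from 250 bases before the RefSeq transcription start to 50 after it (GRCm38.p6, strand of the gene), and capitals mark each TGACG, the core of the cAMP response element, and each CCAAT box, on either strand. Of the 5 genes, 4 had an entry, and Shc3 had none. Zfp169 and Shc1 have 2 entries each, and the first of each is shown.
Zfp169, chr13:48513387-48513686, minus strand: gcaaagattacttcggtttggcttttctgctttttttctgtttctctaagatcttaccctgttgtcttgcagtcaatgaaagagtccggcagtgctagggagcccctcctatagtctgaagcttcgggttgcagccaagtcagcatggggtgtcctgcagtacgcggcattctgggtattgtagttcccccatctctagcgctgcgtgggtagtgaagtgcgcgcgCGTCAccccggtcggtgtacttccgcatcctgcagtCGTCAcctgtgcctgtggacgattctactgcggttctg
Shc1, chr3:89418301-89418600, plus strand: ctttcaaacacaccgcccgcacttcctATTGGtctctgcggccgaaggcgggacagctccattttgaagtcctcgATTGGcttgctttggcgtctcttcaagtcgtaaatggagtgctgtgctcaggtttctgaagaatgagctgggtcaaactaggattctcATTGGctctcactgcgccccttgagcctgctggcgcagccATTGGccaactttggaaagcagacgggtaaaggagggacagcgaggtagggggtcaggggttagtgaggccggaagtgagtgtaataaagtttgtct

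The Zfp169 window held TGACG 2 times, 24 bases before and 13 bases after the start, and 20.8% of the 32851 promoters of this length held it at least once. It held no CCAAT, which 37.4% of promoters held. The Shc1 window held CCAAT 4 times, at 223, 175, 87 and 47 bases before the start, and no TGACG. The E-box CANNTG, in 72.3% of promoters, was present in the Zfp169 window and absent from that of Shc1. The GC box GGGCGG, in 35.7% of promoters, was present in Shc1 and absent from Zfp169, and neither held TATAAA, found in 13.6%. The second Zfp169 entry overlaps the first and holds the same motifs, whereas the second Shc1 entry, which begins at 89421371, held an E-box 171 bases before its start, 2 CCAAT and no GC box. These are matches of letters only.

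Library totals ran from 13868087 to 28318857 counts. Levels are CPM values (counts relative to the total of the library, with TMM scaling within a stage), and 3 counts, the most that a count of 0 allows, came to between 0.106 and 0.216 CPM. Every library held at least 41 counts of each of the 5 genes. Dhcr7 was lower in every KO library than in any WT library of its stage, with means of 68.5 ± 3.78 and 22 ± 4.57 CPM at E12.5 and of 85.8 ± 18.4 and 13.8 ± 1.84 CPM at PND0 (SD, n = 4). Neuronal markers, 8 of 8 detected in every group, summed to between 2544 and 7296 CPM by library. In the genotype comparisons, 1 marker of the 10 cell type lists passed, Olig1 of the oligodendrocyte lineage at E14.5 (log2 fold change -0.45, SE 0.101, edgeR adjusted p = 0.0155), where the summed level of the 7 oligodendrocyte markers was 131 to 139 CPM in WT and 123 to 131 in KO. Its part in the E14.5 values was not tested. E12.5 KO library 1 stood farthest apart, with 5.64% of its counts in the ribosomal RNA gene CT010467.1, against 0.191% to 0.376% in the other 7 libraries of that stage. This share was also raised in E16.5 WT library 1 (3.75%) and in E14.5 KO libraries 3 and 4 (2.68% and 2.55%), while E14.5 KO libraries 1 and 2, at 1.03% and 0.869%, lay close to the WT libraries of their stage (1.04% to 1.17%). E12.5 KO library 1 also had the lowest length slope. This slope is the change in a library's log2 CPM relative to its stage, per doubling of transcript length, and it was -0.19 in that library.

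Shc3, a neuronal adaptor, was lower in KO than in WT brains at E14.5, and its KO libraries also lay below the WT libraries at birth, without passing the test there. At E14.5 the WT libraries had 16, 13.7, 13.7 and 12 CPM and the KO libraries 7.66, 6.82, 7.56 and 8.74 CPM. No KO library reached the lowest WT library. KO libraries 3 and 4 had a raised ribosomal RNA share, whose part in this difference was not tested. The means were 13.9 ± 1.65 and 7.69 ± 0.792 CPM (SD, n = 4), and the KO level was 55.3% of WT (log2 fold change -0.85, SE 0.111). This is the difference for which Shc3 was chosen.

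Zfp169 at E14.5 showed the same arrangement. The WT libraries had 14.48, 12.40, 10.16 and 12.11 CPM and the KO libraries 6.4, 7.57, 8.32 and 6.66 CPM. Again all KO libraries lay below all WT libraries. The means were 12.3 ± 1.77 and 7.24 ± 0.877 CPM, which put KO at 58.8% of WT (log2 fold change -0.77, SE 0.119). Over all 17837 genes tested at this stage, 0.308% were called lower and 2.49% had all KO libraries below all WT libraries. The fold change lay between -0.92 and -0.78 for Shc3, and between -0.85 and -0.68 for Zfp169, whichever library was left out. As these libraries chose both genes, the ranges are a description and no support for the difference. Length slopes at E14.5 overlapped between genotypes, at -0.0181 to 0.0237 in WT and -0.00373 to 0.018 in KO.

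The other Shc genes at E14.5 lay close to their WT level. Shc1 had 30.8 to 34.8 CPM in WT and 33 to 39.6 in KO (log2 fold change 0.10, 95% interval -0.03 to 0.24). Shc2 had 52.5 to 55.5 and 55.4 to 57.2 CPM (0.05, -0.04 to 0.15), and Shc4 had 3.83 to 4.88 and 3.58 to 5.8 CPM (0.12, -0.22 to 0.46). All 3 overlapped between genotypes. They are described without a test because this contrast chose the group of genes.

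**Figure D1:**
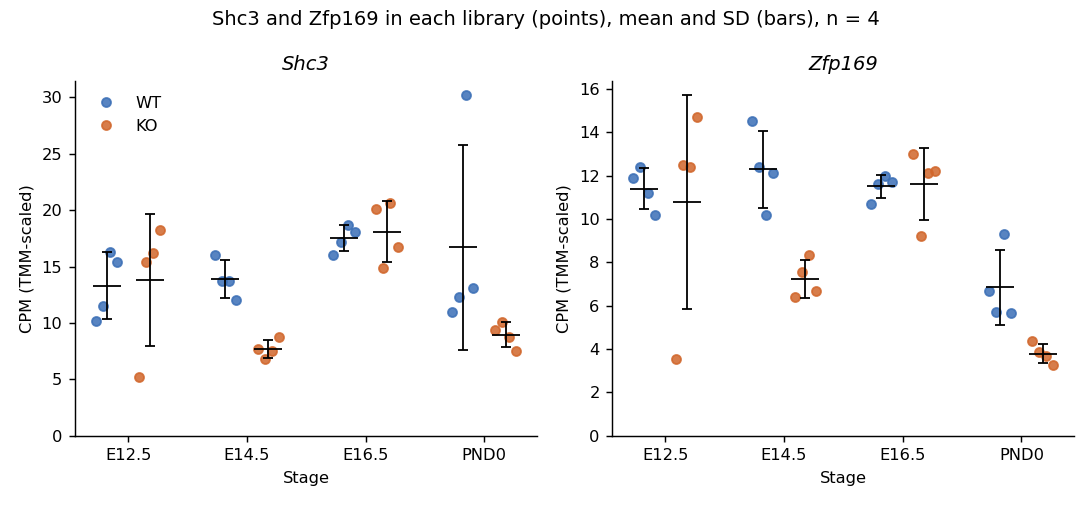
Level of Shc3 (left) and Zfp169 (right) in CPM, TMM-scaled within a stage, by stage on the x axis; each point is 1 library (WT blue, KO orange), and the bars give the mean and SD of 4 libraries. At E14.5, by which the genes were chosen, and at PND0 all KO points lie below all WT points of the same gene. E12.5 KO library 1 is the low point at its stage in both panels (5.22 and 3.53 CPM), and PND0 WT library 3 the high point at birth (30.2 and 9.31 CPM).

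PND0 was not used to choose the genes, and no library is shared between stages. At PND0 Zfp169 had 6.68, 5.69, 9.31 and 5.67 CPM in the WT libraries and 4.35, 3.87, 3.66 and 3.27 CPM in the KO libraries. The KO libraries were again all below the WT libraries, an arrangement that 6.29% of the 17420 genes tested showed in this direction. The means were 6.84 ± 1.71 and 3.79 ± 0.449 CPM, a log2 fold change of -0.85 (SE 0.216, 95% interval -1.31 to -0.39). edgeR's quasi-likelihood test gave a Benjamini-Hochberg adjusted p of 0.0614, above the threshold of 0.05, and an unadjusted p of 0.00126. The adjusted p was 0.0127 with DESeq2, 0.0188 with no filter on low counts, 0.0302 in an edgeR fit of all 32 libraries and 0.112 with offsets for transcript length. In this order the settings called 904 of 13437, 1091 of 33525, 1205 of 19541 and 48 of 17420 genes. The edgeR test named first called 250 of 17420.

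Shc3 at PND0 had 11, 12.3, 30.2 and 13.1 CPM in WT and 9.41, 10.1, 8.79 and 7.5 CPM in KO. The KO libraries were all below the WT libraries, but the gap was narrow, from 10.1 to 11 CPM, and WT library 3 stood far above the rest. The means were 16.7 ± 9.08 and 8.95 ± 1.11 CPM (log2 fold change -0.90, SE 0.296, 95% interval -1.55 to -0.25), with an edgeR adjusted p of 0.142 and an unadjusted p of 0.0111. The adjusted p was 0.0191 with DESeq2, 8.75e-05 with no filter on low counts and 0.0433 in the edgeR fit of all 32 libraries. These settings called more genes, as given for Zfp169. Without WT library 3 the fold change was -0.44 for Shc3 (edgeR adjusted p = 0.292) and -0.66 for Zfp169 (0.227).

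At birth the length slope did not overlap between the genotypes, at 0.0161 to 0.069 in WT and -0.0738 to -0.0179 in KO. With offsets for transcript length the fold changes were -0.93 for Shc3 (edgeR adjusted p = 0.214) and -0.82 for Zfp169 (0.112). Those offsets use the GENCODE lengths, 3163 nt for the longest Shc3 transcript and 4175 nt for that of Zfp169, which leave out the RefSeq extensions given above. The part of the slope in the PND0 values beyond these offsets was not tested. Blood markers, which covered 200 to 267 CPM in WT, reached 234 to 2293 CPM in KO, with 5 of 6 markers detected and Hbb-y at 0 in all KO libraries. Choroid plexus markers, with 5 of 5 detected, summed to 308 to 618 CPM in WT, lowest in WT library 3, and to 617 to 970 CPM in KO. The part of either list was not tested. At this stage 1.44% of genes were called in either direction.

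Shc1, Shc2 and Shc4 at PND0 were closer to WT than Shc3 and Zfp169. Shc1 had 21.4 to 22.9 CPM in WT and 20.1 to 25.8 in KO (log2 fold change 0.02, 95% interval -0.23 to 0.26, edgeR adjusted p = 0.966). Shc2 had 66 to 80.1 and 64.2 to 82.3 CPM (-0.01, -0.21 to 0.19, 0.976). Shc4 had 8.38 to 10.8 and 7.56 to 9.79 CPM (-0.12, -0.46 to 0.23, 0.762). For these 3 genes the libraries of the genotypes overlapped.

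At E16.5 the genotype difference of Shc3 and Zfp169 was near 0. Shc3 had 16, 17.2, 18.7 and 18.1 CPM in WT and 20.1, 14.9, 20.6 and 16.7 CPM in KO, so that the KO libraries lay on both sides of the WT libraries. Its log2 fold change was 0.05 (95% interval -0.19 to 0.28, edgeR adjusted p = 0.9). Zfp169 had 10.7, 11.6, 12 and 11.7 CPM in WT and 13, 9.23, 12.1 and 12.2 CPM in KO (0.02, -0.23 to 0.27, edgeR adjusted p = 0.962). The E14.5 log2 fold changes, by which the genes were chosen, were -0.85 and -0.77, below both intervals. Whether the difference changed between E14.5 and E16.5 was not tested. In both genes KO library 2 was the lowest of the 8.

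Shc2, the neuronal adaptor with the highest level per length from E14.5 on, was the member with the smallest p at E16.5. Its WT libraries had 58.1, 64.8, 47.4 and 54.8 CPM and its KO libraries 68.7, 68.2, 65.5 and 64.2 CPM. The groups overlapped by a single pair of libraries, WT library 2 and KO library 4. The log2 fold change was 0.24 (SE 0.0798), with an unadjusted p of 0.00842 and an edgeR adjusted p of 0.305, and with no filter on low counts the adjusted p was 0.0399. At this stage 0.0462% of the 17328 genes tested were called, and 233 of 34379 with no filter. Shc1 (-0.08, edgeR adjusted p = 0.805) and Shc4 (-0.05, 0.934) overlapped between genotypes.

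At E12.5 the libraries of one group differed widely. Shc3 had 10.2, 11.5, 16.3 and 15.4 CPM in WT and 5.22, 15.4, 16.2 and 18.2 CPM in KO (log2 fold change 0.05, 95% interval -0.70 to 0.80, edgeR adjusted p = 0.988). Zfp169 had 11.9, 12.4, 11.2 and 10.2 CPM in WT and 3.53, 12.53, 12.39 and 14.66 CPM in KO (-0.08, -0.85 to 0.69, edgeR adjusted p = 0.977). KO library 1 was the lowest of the 8 for both, with 68 counts of Shc3 and 46 of Zfp169, and the other 3 KO libraries lay among or above the WT libraries. Without it the fold changes were 0.30 and 0.19 (edgeR adjusted p = 0.566 and 0.567), so the sign for Zfp169 turned. Of the E14.5 fold changes, by which the genes were chosen, that of Zfp169 (-0.77) lies within its interval here. That of Shc3 (-0.85) lies below its own. Whether the difference changed between E12.5 and E14.5 was not tested.

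Shc1 at E12.5 had 98.1, 59.8, 40.2 and 52 CPM in WT and 52.2, 37.4, 36 and 54.1 CPM in KO (log2 fold change -0.48, 95% interval -1.07 to 0.11, edgeR adjusted p = 0.875). One WT library was high, and the groups overlapped. Markers of pericytes and meninges, with 7 of 7 detected, summed to between 1049 and 2223 CPM in WT and between 503 and 2088 CPM in KO at this stage, with the highest sum in that same WT library. Their part in the Shc1 values was not tested. Shc2 (-0.03, edgeR adjusted p = 0.971) and Shc4 (-0.06, 0.962) were near their WT levels, and 0.0177% of the 16948 genes tested were called.

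**Figure D2:**
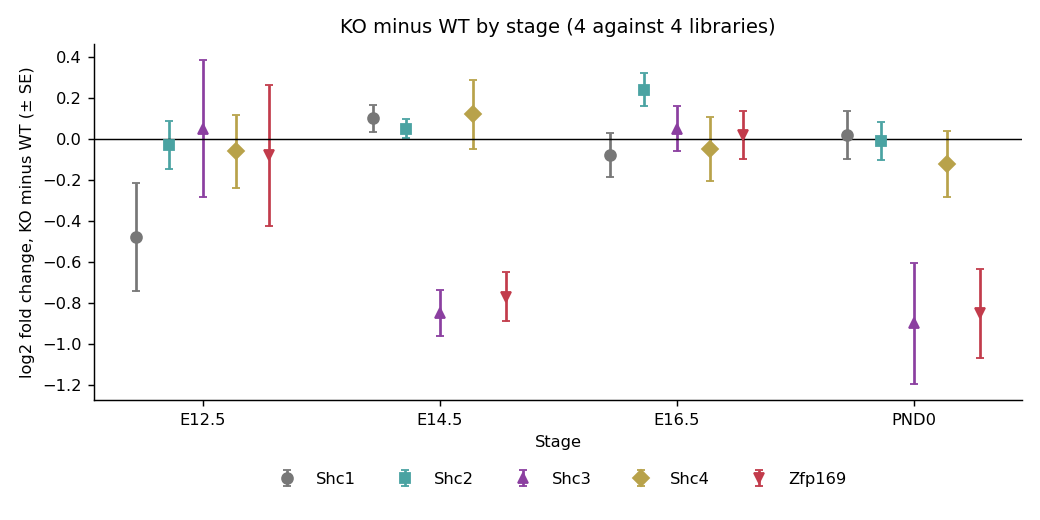
KO minus WT difference as a log2 fold change (y axis) with its SE (bars), by stage (x axis), for the 5 genes, each from 4 against 4 libraries in edgeR. Shc3 and Zfp169 lie at -0.85 and -0.77 at E14.5, by which they were chosen, and at -0.90 and -0.85 at PND0. They lie within 0.08 of 0 at E12.5 and E16.5, and Shc1 at E12.5 is at -0.48.

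Over the 3 stages that did not choose the genes, the average KO minus WT difference was -0.26 for Shc3 (SE 0.171, edgeR adjusted p = 0.561) and -0.29 for Zfp169 (SE 0.142, unadjusted p = 0.0492, edgeR adjusted p = 0.406), in a fit that called 0.209% of 19101 genes. Neither passed. Without both E12.5 KO library 1 and PND0 WT library 3, a choice made after seeing the data, the averages were -0.02 and -0.14. Whether the genotype difference itself changed between E12.5, E16.5 and PND0 was tested with an edgeR quasi-likelihood F test. It gave adjusted p values of 0.424 for Shc3 and 0.409 for Zfp169, and of 0.582, 0.544 and 0.981 for Shc1, Shc2 and Shc4. No gene passed this test (0% of 19101 genes), with 2270 at an unadjusted p under 0.05. DESeq2 called 1.07% of the genes it tested, and edgeR 2.52% without E12.5 KO library 1. For Zfp169 the adjusted p was 0.0144 without E12.5 KO library 1, and 0.0384 without it and PND0 WT library 3.

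From E12.5 to birth the 4 Shc genes took different courses. In WT, Shc1 fell from 40.2 to 98.1 CPM at E12.5 to 21.4 to 22.9 CPM at PND0, with no overlap (log2 fold change -1.38, SE 0.224, edgeR adjusted p = 0.000234). Markers of pericytes and meninges summed to 1049 to 2223 CPM in E12.5 WT and to 532 to 620 CPM in PND0 WT. Their part in this fall was not tested. Shc4 rose by 1.36 (SE 0.168, edgeR adjusted p = 3.07e-05), and Shc2 rose by 0.70 (SE 0.0958, 6.75e-05), both with all PND0 libraries above all E12.5 libraries. Such separation held for 33.7% of genes downward and 32.1% upward. Overlap between stages, here and in the steps below, was judged on CPM scaled over all 32 libraries. On that scale WT Shc1 had 40 to 94.2 CPM at E12.5 and 22.8 to 24.3 CPM at PND0. The CPM ranges printed for Shc1 above and for the steps are scaled within a stage. Shc3 changed by 0.43 (SE 0.311, edgeR adjusted p = 0.238), and its value rested on PND0 WT library 3, without which it was -0.03. Zfp169 fell by 0.63 on the log2 scale (SE 0.179, edgeR adjusted p = 0.00859). In this comparison 36.4% of 17681 genes were called lower and 34.5% higher, so 4 called of 5 lay near the background.

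In KO brains, Shc1, Shc2 and Shc4 took courses of the same signs. From E12.5 to PND0 Shc1 fell by 0.89 (SE 0.154, edgeR adjusted p = 0.000351), Shc2 rose by 0.72 (SE 0.117, 0.000239) and Shc4 rose by 1.30 (SE 0.179, 6.86e-05). Zfp169 fell by 1.40 (SE 0.351, edgeR adjusted p = 0.00425) and Shc3 changed by -0.52 (SE 0.305, 0.156). For Shc3 this value was -0.79 (edgeR adjusted p = 0.000553) without E12.5 KO library 1. In KO 65.3% of 17199 genes were called. Whether WT and KO courses differed between these stages is part of the test over 3 stages given above.

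The steps between neighbouring stages show when each gene moved. Shc1 fell first between E12.5 and E14.5 in WT (-0.90, edgeR adjusted p = 0.012), where 57.8% of genes were called, and between E16.5 and PND0 (-0.36, edgeR adjusted p = 0.0157), where 53.2% were called. The first call was lost with no filter on low counts (0.0531) and the second without E16.5 WT library 4 (-0.25, edgeR adjusted p = 0.0692). With 1 library left out the first step ran from -1.05 to -0.59. Over it the pericyte and meninges markers went from 1049 to 2223 CPM in E12.5 WT to 489 to 553 CPM in E14.5 WT. Their part in the step was not tested. In KO the first step was -0.33 (edgeR adjusted p = 0.0779, with 49.3% of genes called), and the step from E14.5 to E16.5 was -0.36 (0.000201, with 61.4% called), against -0.18 in WT (0.117, with 57.5% called). Shc4 stayed between 3.15 and 6.26 CPM until E16.5 and then rose between E16.5 and PND0, by 0.86 in WT (edgeR adjusted p = 0.000287) and by 0.79 in KO (0.00136). Shc2 rose over the same last step by 0.46 in WT (0.00121) and by 0.20 in KO (0.0415, with 48.2% of genes called), where leaving out any 1 of 6 libraries raised the edgeR adjusted p above the threshold, to at most 0.113. In KO Shc2 had also risen by 0.25 from E12.5 to E14.5 (edgeR adjusted p = 0.0415, lost without any 1 of 5 libraries, up to 0.0997) and by 0.21 from E14.5 to E16.5 (0.000771), a call that held whichever library was left out (0.000427 to 0.00398). In WT these steps were 0.16 (edgeR adjusted p = 0.0853) and 0.01 (0.918). Whether steps into or out of E14.5 differed between genotypes was not tested.

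Shc3 and Zfp169 both fell over the last step in KO. There Shc3 went from 14.9 to 20.6 CPM at E16.5 to 7.5 to 10.1 CPM at PND0 (-0.94, SE 0.141, edgeR adjusted p = 0.000132), and Zfp169 from 9.23 to 13 CPM to 3.27 to 4.35 CPM (-1.54, SE 0.159, 6.44e-06). Neither pair of groups overlapped, as in 21.4% of the genes tested in this direction. In WT over the same step Zfp169 fell by 0.67 (SE 0.167, edgeR adjusted p = 0.00383) and Shc3 changed by 0.01 (SE 0.304, 0.976), or by -0.44 (edgeR adjusted p = 0.00977) without PND0 WT library 3. Whether this step differed between genotypes is part of the test over 3 stages given above, which neither gene passed with all libraries. Steps into and out of E14.5 use the libraries that chose these genes and are given with no test. In KO, Shc3 changed by -0.84 from E12.5 to E14.5 and by 1.21 from E14.5 to E16.5, and Zfp169 by -0.58 and 0.66. In WT, the same steps were 0.06 and 0.29 for Shc3 and 0.11 and -0.14 for Zfp169.

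**Figure D3:**
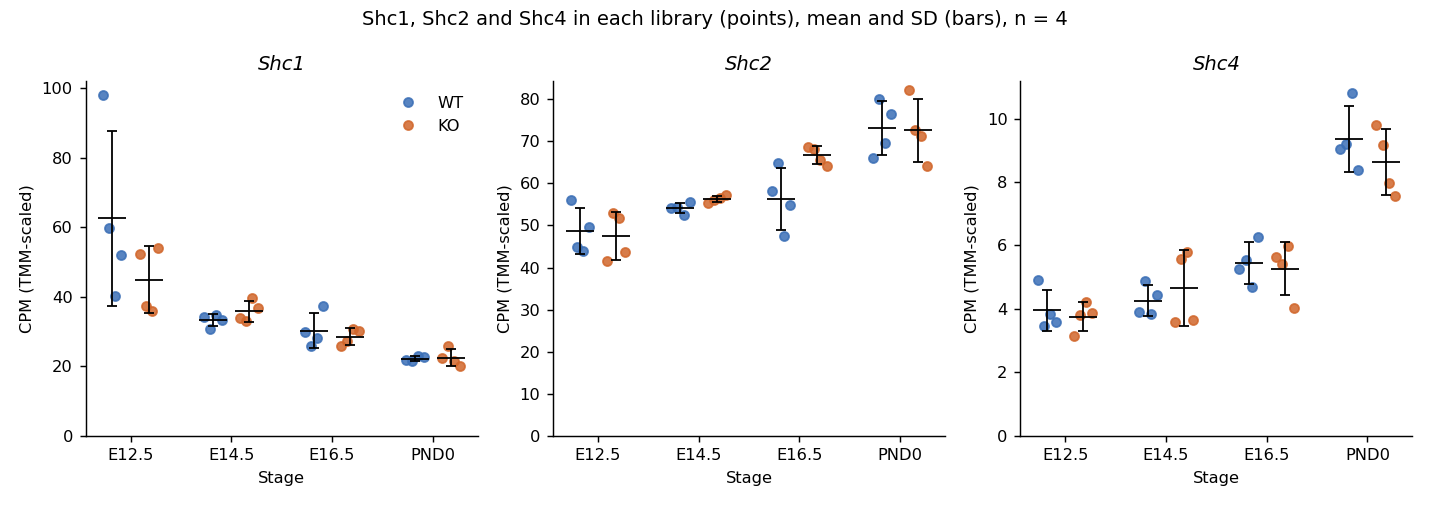
Level of Shc1, Shc2 and Shc4 in CPM, TMM-scaled within a stage, by stage on the x axis; each point is 1 library (WT blue, KO orange), and the bars give the mean and SD of 4 libraries. Shc1 is highest at E12.5 and lowest at PND0, Shc2 and Shc4 are highest at PND0, and the genotypes overlap at all 4 stages for these 3 genes.

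Per kilobase of exon, the order of the family differed between the stages. Markers of pericytes and meninges summed to 1049 to 2223 CPM in E12.5 WT and to 489 to 553 CPM in E14.5 WT. Their part in this order was not tested. At E12.5 in WT the levels were 10.8 for Shc1, 8.76 for Shc2, 2.85 for Shc3, 1.39 for Zfp169 and 0.467 for Shc4 (mean CPM per kb, scaled over all 32 libraries), and Shc1 and Shc2 overlapped. From E14.5 on Shc2 was the highest in every library of both genotypes, and at PND0 in WT the order was Shc2 at 14.3, Shc1 at 4.16, Shc3 at 3.85, Shc4 at 1.2 and Zfp169 at 0.902. There Shc1 and Shc3 overlapped, as did Shc4 and Zfp169. In KO at PND0 no neighbours in that order overlapped, with 14.1 for Shc2, 4.2 for Shc1, 2.06 for Shc3, 1.1 for Shc4 and 0.499 for Zfp169.

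As a share of the summed per-kilobase level of the 4 Shc genes, Shc1 went from 46% ± 8.73 at E12.5 to 17.8% ± 1.5 at PND0 in WT (SD, n = 4), while Shc2 went from 38.8% ± 3.8 to 61.1% ± 6.38. Shc3 held 13.1% ± 4.81, 15.6% ± 1.6, 19% ± 2.18 and 16% ± 7.07 over the 4 stages in WT. In KO it held 14.6% ± 5.66, 8.85% ± 0.782, 18% ± 2.17 and 9.58% ± 0.581. The single WT libraries ranged from 13.6% to 17.5% at E14.5 and from 12% to 26.6% at PND0, and the KO libraries from 8.11% to 9.81% and from 9.11% to 10.4%. The Shc3 share therefore did not overlap between genotypes at those stages, with a gap at PND0 of only 10.4% to 12%. It is computed from the Shc3 levels given above, which at E14.5 chose the gene, and is no separate result. Shc4 held at most 5.61% in any library.

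Ordered by level over all 32 libraries, the 8 groups gave few steps without overlap. Shc3 was lowest in E14.5 KO (mean 7.65 CPM, scaled over all libraries) and next in PND0 KO (9.46 CPM), which overlapped each other, and PND0 KO also overlapped E12.5 WT (13.1 CPM). Zfp169 was lowest in PND0 KO (4 CPM), which did not overlap the next group, E14.5 KO (7.2 CPM), and that one overlapped PND0 WT (7.23 CPM). The low E14.5 KO levels of both genes are those by which they were chosen, so the place of that group is no separate result. For Shc4 both PND0 groups stood above the other 6 without overlap. Shc2 was highest in both PND0 groups, which did not overlap E16.5 KO (64.3 CPM), nor did that group overlap E14.5 KO (56 CPM). Shc1 overlapped at every step of its order.

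Libraries of a group that were high in Shc3 tended to be high in Zfp169. After subtracting the mean of each group from log2 CPM, Pearson's r over the 32 libraries was 0.81 (permutation within groups, p = 0.00957, adjusted p = 0.0447 over 14 relations) and Spearman's rho was 0.61 (permutation p = 0.0104, adjusted p = 0.0715). E12.5 KO library 1 was low in both genes and PND0 WT library 3 high in both. Leaving out these 2 libraries, the farthest from the median, gave r = 0.60 with the group means kept, and r = 0.22 (permutation p = 0.302) with the group means taken again, so the size of r over all stages depended on those 2 libraries. Over the 8 libraries of one stage, E12.5 gave r = 0.89 (permutation p = 0.17), E14.5 gave 0.11 (0.774), E16.5 gave 0.84 (0.0138) and PND0 gave 0.86 (0.0793). The E16.5 libraries include neither of those 2. The PND0 value was 0.88 without WT libraries 1 and 3, with the group means kept. At E14.5, where both genes were lower in KO, libraries of a genotype did not deviate together. Without the E14.5 libraries r was 0.84.

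The deviations also followed the length slope of the library. Zfp169 and the slope had r = 0.90 (permutation p = 0.00135, adjusted p = 0.0189) and rho = 0.68 (permutation p = 0.00162, adjusted p = 0.0227). Without the 2 farthest libraries, with the group means kept, r was 0.65. Shc3 and the slope had r = 0.70 (permutation p = 0.0517, adjusted p = 0.145) and r = 0.35 without the 2 farthest, again with the group means kept. For Shc1, Shc2 and Shc4 r with the slope was -0.14, 0.11 and 0.33. Ribosomal RNA percent had r = -0.58 with Shc3 and -0.72 with Zfp169 (permutation p = 0.0967 and 0.0631). When the trend on GENCODE transcript length was subtracted from each library, r of Shc3 and Zfp169 was 0.80. Other pairs were weaker, from -0.27 for Shc3 and Shc1 to 0.42 for Zfp169 and Shc4 (permutation p = 0.00633, adjusted p = 0.0443).

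**Figure D4:**
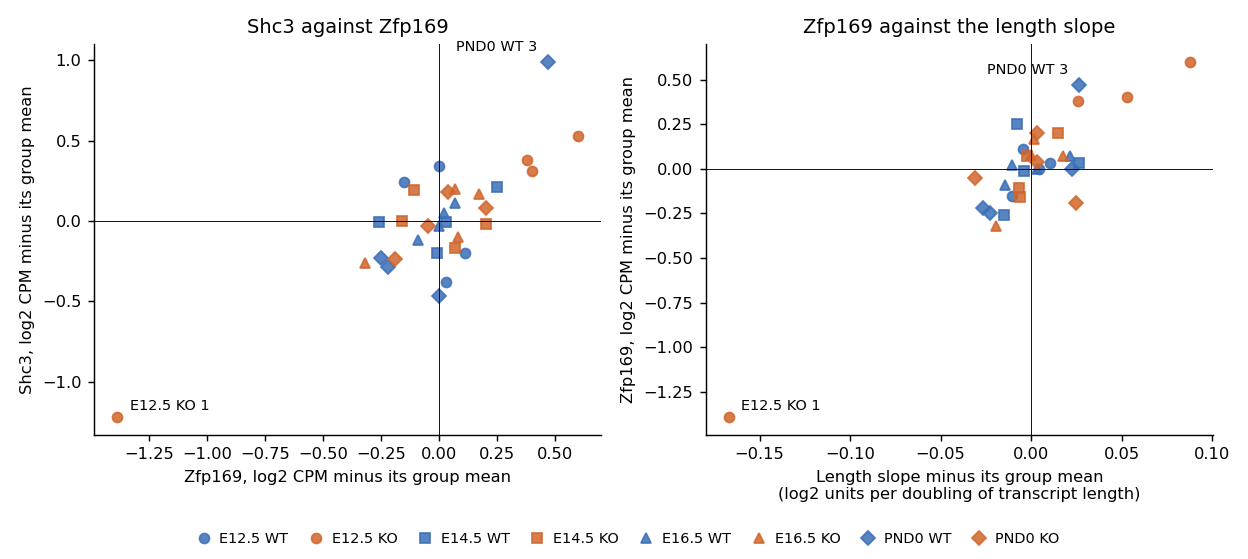
Left, log2 CPM of Shc3 against that of Zfp169, each minus its group mean; right, Zfp169 against the length slope of the library, each minus its group mean; 32 points, 1 for each library, with shape for stage and colour for genotype (WT blue, KO orange). E12.5 KO library 1 lies far from the other points in both panels and PND0 WT library 3 at the top of the left panel, where r is 0.81 with and 0.22 without these libraries.

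Among 16063 genes averaging 1 CPM or more, Zfp169 ranked 99 in its within-group likeness to Shc3, and Shc3 ranked 182 for Zfp169, so many genes deviated more alike with each than they did with each other. Over all 32 libraries without centring, the genes most like Shc3 included Herc2 (r = 0.882), a large ubiquitin ligase, Kif1b (0.877), a kinesin of axonal transport, Phlpp2 (0.855), a phosphatase of Akt, and Aak1 (0.830), a kinase of clathrin adaptors. For Zfp169 they included Lrch3 (0.897), Zfp382 (0.882), another KRAB zinc finger gene, Insr (0.882), the insulin receptor, and the gene model Gm28512 (0.871). These correlations describe libraries that share stages and length slopes.

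The genes around Shc3 and Zfp169 showed no shared fall at E14.5. From 2 Mb before Zfp169 to 2 Mb after Shc3 the tables list 142 other genes, of which 50 were tested at E14.5. None passed in edgeR or DESeq2, and none had all KO libraries on one side, with a median log2 fold change of 0.00. An unadjusted edgeR p under 0.05 was found for 1 of them, against 1557 of all 17837 genes. Over all genes at this stage 0.527% were called. The smallest p values were those of the gene model Gm2762 (1.98 ± 0.692 CPM in WT, 1.34 ± 0.515 in KO, edgeR adjusted p = 0.569), the noncoding Phf2os1 (4.81 ± 0.528 and 5.83 ± 0.469 CPM, 0.578) and Gadd45g, a stress response gene (56.6 ± 4.31 and 51.7 ± 5.47 CPM, 0.579). At E12.5 and E16.5 none of 49 passed in either tool, beside 0.0177% and 0.0462% of all genes called in edgeR. An unadjusted edgeR p under 0.05 was found for 2 and 6 (796 of all 16948 and 2001 of all 17328 genes). The smallest p belonged to Barx1, a homeobox gene, at E12.5 (14.3 ± 20.1 CPM in WT, 1 ± 1.59 in KO, edgeR adjusted p = 0.875) and to Dek, a chromatin protein, at E16.5 (95.9 ± 9.68 and 82.5 ± 2.39 CPM, 0.302). At PND0 1 of 48 passed, Kif13a (chromosome 13, 46749087 to 46929867, minus strand), which encodes a kinesin of vesicle transport and fell from 63.4 ± 7.03 to 43.4 ± 4.99 CPM (-0.55, SE 0.106, edgeR adjusted p = 0.023, and 0.112 with length offsets), with 7 at an unadjusted p under 0.05. Over all 17420 genes at PND0, 3130 had such a p. DESeq2 called Kif13a and Nup153, beside 904 of the 13437 genes it tested. All KO libraries were lower for 6 of these 48, against 6.29% of all genes.

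The nearest genes averaging 1 CPM or more, taken by position, overlapped between genotypes at all 4 stages. S1pr3, a receptor for sphingosine 1-phosphate whose GENCODE end lies 8.24 kb from that of Shc3 on the opposite strand, most of it covered by the RefSeq extension of Shc3, had 17.4 ± 1.3 CPM in WT and 16 ± 1.56 in KO at E14.5 (-0.12, edgeR adjusted p = 0.741) and 18.2 ± 3.83 and 18.6 ± 2.14 CPM at PND0 (0.03, 0.946). Cks2, a cell cycle kinase subunit 75.8 kb on the other side, had 25.5 ± 2.66 and 24.7 ± 3.81 CPM at E14.5 (-0.05, 0.935, edgeR). Beside Zfp169, Id4, an inhibitor of neural differentiation factors 222 kb away, had 357 ± 14 and 363 ± 6.54 CPM at E14.5 (0.02, edgeR adjusted p = 0.896). The noncoding 6720427I07Rik, 19.5 kb away on the side of the Zfp169 start and the nearest there at that level, had 6.57 ± 0.365 and 6.69 ± 0.88 CPM at E14.5 (0.02, 0.985, edgeR). At PND0 it had 3.72 ± 0.482 and 2.37 ± 1.28 CPM (-0.65, edgeR adjusted p = 0.369). Closer still, A830005F24Rik (chromosome 13, 48513570 to 48514859, plus strand) begins inside the Zfp169 promoter window printed above, on the opposite strand, at a mean of only 0.582 CPM. It gave log2 fold changes of -0.34 at E14.5 (edgeR adjusted p = 0.914), -0.45 at E16.5 (0.749) and 0.58 at PND0 (0.713), with overlapping groups, and whether the counting used strand is not given in the sources used here.

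**Figure D5:**
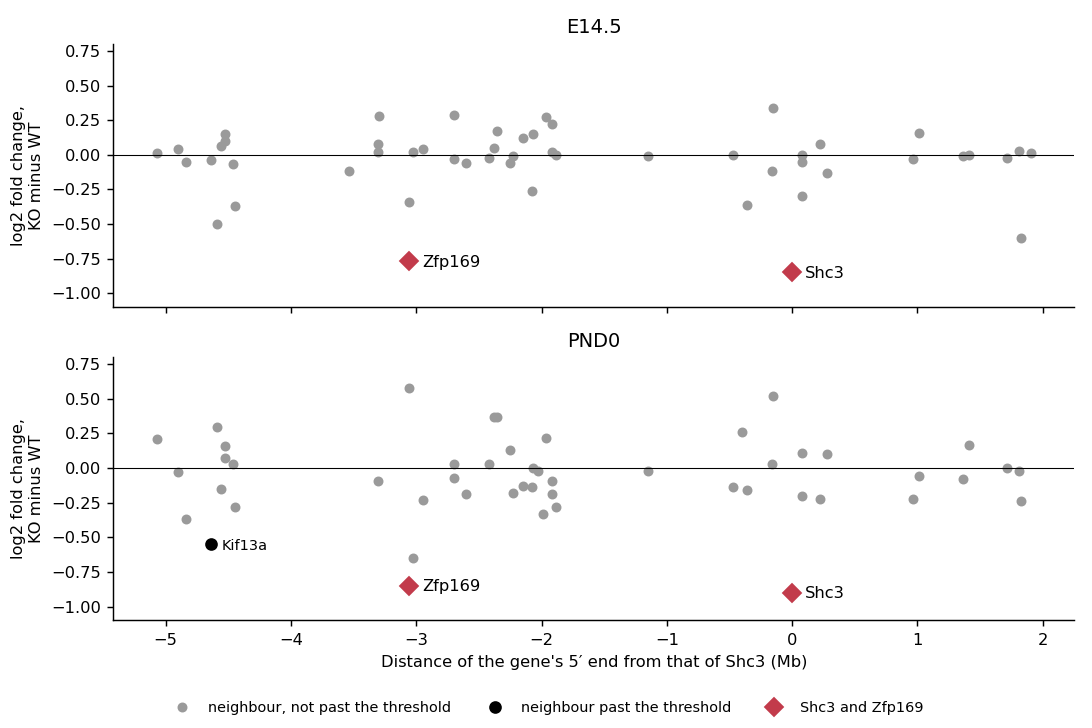
KO minus WT log2 fold change (y axis) at E14.5 (top) and PND0 (bottom) of the tested genes from 2 Mb before Zfp169 to 2 Mb after Shc3, by the distance of their 5′ end from that of Shc3 in Mb (x axis). Shc3 and Zfp169 (red diamonds) lie below all tested neighbours at both stages, but their low E14.5 values are those by which they were chosen. The only neighbour past the threshold (black) is Kif13a at PND0, at -0.55.

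None of the listed signalling genes around the Shc adaptors passed between genotypes before birth, when few genes passed at all. Of 16 receptors that recruit Shc proteins, 17 genes from Grb2 to ERK, 21 other docking proteins and 14 ERK feedback and target genes, none passed in edgeR or in DESeq2 at E12.5, E14.5 or E16.5, and list medians lay between -0.25 and 0.06. Over all genes tested edgeR called 0.0177%, 0.527% and 0.0462% at these stages, so an absence of calls in lists of this size says little. At an unadjusted edgeR p under 0.05 were 5 of 68 at E12.5 (796 of all 16948 genes), 13 of 67 at E14.5 (1557 of 17837) and 6 of 68 at E16.5 (2001 of 17328). At PND0 there were 21 of 68 (3130 of 17420). At E14.5 the smallest p in the cascade was that of Nf1, which switches Ras off, at 111 ± 4.89 CPM in WT and 123 ± 5.44 in KO (0.15, edgeR adjusted p = 0.0937), and among the receptors that of Ntrk3, the receptor of neurotrophin-3, at 102 ± 5.1 and 112 ± 7.23 CPM (0.13, 0.315). At PND0 the passes were all lower in KO: Insr among the receptors, Sos2 in the cascade, and Irs1 and Frs2 among the docking proteins. Sos2, the partner of Grb2 that loads Ras, went from 51.6 ± 1.35 to 36.6 ± 1.98 CPM (-0.50, edgeR adjusted p = 0.0156). Irs1, which docks to the insulin receptor, went from 22.9 ± 6.23 to 10.2 ± 2.48 CPM (-1.17, 0.0159, edgeR), and Frs2, which docks to FGF receptors, from 75.8 ± 7.44 to 56.8 ± 2.23 CPM (-0.42, 0.032). Insr went from 87.7 ± 5.14 to 68.8 ± 5.15 CPM (-0.35, edgeR adjusted p = 0.0497). For all 4 the KO libraries lay below the WT libraries without overlap, and 1.03% of all genes were called lower. With offsets for transcript length none of the 68 genes passed (Irs1 -0.99, edgeR adjusted p = 0.0572, and Sos2 -0.39, 0.0705), and DESeq2 called 9, adding Alk, Kit, Ret, Irs4 and Spry4, beside 904 of the 13437 genes it tested. The median over the receptors was -0.28 and over the cascade -0.04, against 0.00 over all genes. 

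The 14 ERK feedback and target genes did not pass in edgeR at any stage. From E12.5 to PND0, 0.0177%, 0.527%, 0.0462% and 1.44% of all genes were called. With so few genes this does not show whether the output of the cascade changed. At PND0 Spry4, a feedback inhibitor, gave a log2 fold change of -0.54 (edgeR adjusted p = 0.114, though called by DESeq2) and Dusp4, a phosphatase of ERK, had 84.3 ± 11.9 and 68.1 ± 10.1 CPM (-0.31, 0.178). Their groups overlapped. From E12.5 to PND0 in WT, 10 of the 14 rose and 2 fell, among them Fos (by 2.87, edgeR adjusted p = 1.85e-06) and Egr1 (by 2.34, 1.88e-05), beside 34.5% and 36.4% of all genes. Receptors gave 7 that rose and 3 that fell of 16, with Ntrk2, the BDNF receptor, rising by 2.0 (6.09e-07), Alk by 3.27 (1.04e-06) and Erbb2 at -1.71 (0.000107, all edgeR). The cascade gave 11 and 3 of 17, and the docking proteins 11 and 7 of 21, where Dok5 and Dok6, adaptors of neurotrophin and Ret receptors, rose by 2.26 and 2.30 and Grb10, an inhibitor of insulin signalling, fell by 2.59 on the log2 scale (edgeR adjusted p = 1.32e-07, 2.02e-07 and 2.7e-07).

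Most cofactors through which KRAB zinc finger proteins act fell over development. Of 12 genes, 10 fell and 1 rose from E12.5 to PND0 in WT, beside 36.4% and 34.5% of all genes, with a median log2 fold change of -0.64 against -0.05 over all genes. Hdac1, a histone deacetylase, fell by 1.72 on the log2 scale (edgeR adjusted p = 3.8e-08), Cbx1, a heterochromatin protein, by 1.62 (2.9e-08), Cbx5 by 1.01 (2.7e-07), and Chd3, a remodeller of the NuRD complex, rose by 0.40 (0.00294). None passed between genotypes at any stage in edgeR, with 0, 2, 3 and 5 at an unadjusted p under 0.05 from E12.5 to PND0. Over all genes 796 of 16948, 1557 of 17837, 2001 of 17328 and 3130 of 17420 had such a p. In the same order edgeR called 0.0177%, 0.527%, 0.0462% and 1.44% of all genes. DESeq2 called Atf7ip at E14.5 and Cbx3 at E16.5, beside 118 of 12828 and 141 of 6632 genes. At PND0 the median over the list was 0.00, and the smallest p was that of Chd3 (1025 ± 112 CPM in WT, 1216 ± 65.8 in KO, log2 fold change 0.25, edgeR adjusted p = 0.116).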

How the data were processed

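The deposited tables hold whole-number counts for 55291 gene symbols in 8 libraries per stage. Per the labels, polyA-enriched mRNA was sequenced as paired ends on a NovaSeq. Per the submitters' processing notes, HISAT2, SAMtools, featureCounts and DESeq2 and the build mm10 were used. Annotation, strand setting and versions are not given in the sources used here. All columns were used, with totals of 13868087 to 28318857 counts, and 3 counts (0.106 to 0.216 CPM) as the most that a count of 0 allows, for counting error only.

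From the counts, KO and WT were compared within stages with edgeR 4.0.16 in R 4.3.3 (quasi-likelihood F test, TMM, filterByExpr with a minimum count of 10 and total of 15, Benjamini-Hochberg adjustment over all genes tested, threshold 0.05), with 24 libraries for the tests over 3 stages. DESeq2 1.42.0, RLE factors, no filter, a replicate block, a sex-gene covariate, offsets for transcript length, a fit of 32 libraries and each library left out were alternatives. The test was run on simulated data first. Per-kilobase levels used merged exons of GENCODE M21, which names 53186 of the symbols once. Correlations used log2 CPM (prior count 2) and 100000 permutations within groups. Tables were made with Python 3.11.15 and pandas 2.3.3.

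The 48 pairs of libraries within groups all differed by more than sampling noise (chi-square per degree of freedom 2.9 to 115), so each counted once. Same-numbered WT and KO libraries correlated at -0.28 to 0.30, and the main tests did not pair them. With so few libraries this cannot show that they were unpaired. With the replicate block the calls went from 94 to 131 at E14.5 and from 250 to 356 at PND0. The members and all gene lists were chosen with earlier results of these data known. Genes other than members were named by rule: neighbours and list genes that passed (failing any, those of the smallest p), the largest changes from E12.5 to PND0, and the 5 most alike Shc3 or Zfp169 with a mean of at least 1 CPM. Some genes that this rule names are not reported here.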

Additional observations from a re-analysis of the deposited data

Results flagged for a closer look

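Shc3 in PND0 WT library 3 was at 30.2 CPM, against 11 to 13.1 CPM in the other 3 libraries of its group. The gap made up 0.892 of the whole range of the group, above Dixon's 95% critical value for 4 libraries. It was the 1 case in 40 groups of 4 (5 genes in 8 groups), where chance alone sets apart about 1 in 20. The same library held the highest Zfp169 value of its group, and the PND0 results for Shc3 are given with and without it.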

How the results depend on the processing

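Of the alternative values for single genes, 1008 kept their direction and side of the threshold, or moved by less than 1 SD where no test was made, while 37 changed sign, 25 lost and 16 gained a call. The count of genes past the threshold at E12.5 was 3 in edgeR, 23 in DESeq2, 6 with the replicate block and 52 in the fit of all 32 libraries. At E14.5 it was 94, against 146 with no filter and 4 in the fit of 32. At E16.5 it was 8, against 233 with no filter, 141 in DESeq2, 5 with the replicate block, 4 with the sex-gene covariate and 3 in the fit of 32. At PND0 it was 250, against 1091 with no filter, 904 in DESeq2, 48 with length offsets and 1205 in the fit of 32. The average over 3 stages gave 40, against 307 in DESeq2 and 63 without both E12.5 KO library 1 and PND0 WT library 3. The test of a differing effect gave 0%, against 1.07% in DESeq2, 0.0209% with length offsets and 0.942% without those 2 libraries. The causes were not tested.

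With 1 library left out, these counts ran from 1 to 5 at E12.5, from 52 (without WT library 4) to 155 (without WT library 2) at E14.5, from 3 to 14 at E16.5, from 35 (without WT library 3) to 263 at PND0 and from 29 to 91 for the average, and the differing effect from 0.0 to 2.52% (without E12.5 KO library 1).

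Changes of sign were found only in values near 0 or with wide intervals. Shc3 at E12.5 was -0.04 with the replicate block and -0.02 with the sex-gene covariate, and Shc1 at PND0 was -0.01 with length offsets. In WT, Shc2 from E14.5 to E16.5 was -0.01 with no filter, and Shc3 from E16.5 to PND0 was -0.01 with no filter and -0.11 with the replicate block. Leaving out single libraries, KO minus WT at E12.5 ran from -0.08 to 0.04 for Shc2, -0.12 to 0.30 for Shc3, -0.13 to 0.06 for Shc4 and -0.26 to 0.19 for Zfp169. At E16.5 it ran from -0.15 to 0.03 for Shc1, -0.02 to 0.13 for Shc3, -0.11 to 0.06 for Shc4 and -0.04 to 0.11 for Zfp169, and at PND0 from -0.06 to 0.07 for Shc1 and -0.07 to 0.05 for Shc2.

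In WT, Shc3 ran from -0.05 to 0.18 for E12.5 to E14.5, from -0.44 to 0.17 for E16.5 to PND0 and from -0.03 to 0.58 for E12.5 to PND0, and Shc2 from -0.06 to 0.08 for E14.5 to E16.5. The likeness of Shc3 and Zfp169 was 0.22 without the 2 libraries. With the longest transcript as length, 16 of 32 Shc shares moved by more than 1 SD. Same-numbered libraries correlated best with their own number in 4 of 16 cases. Protein features were not run.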

Other observations

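The naming of genes most alike over the 32 libraries was extended to the other Shc genes after their values were seen, among the same 16063 genes. The 5 genes most like Shc1 were Ephb4 (r = 0.959), an ephrin receptor, Cald1 (0.959), the actin-binding caldesmon, Nfatc4 (0.954), a calcium-dependent transcription factor, Ctdsp1 (0.952), a phosphatase, and Mrc2 (0.952), a collagen receptor. Shc2 was most like Grik4 (0.938), a kainate receptor subunit, Zfp651 (0.936), Speg (0.929), Tmem132e (0.924) and Ache (0.923), which encodes acetylcholinesterase. For Shc4 they were Fam149a (0.940), Spata2l (0.939), App (0.938), the amyloid precursor, Dusp3 (0.937) and Zdhhc2 (0.936), a palmitoyltransferase. All of these r values lay above the highest for Shc3 or Zfp169, 0.897, and they describe libraries that share stages.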
